A study of Mus musculus with 8 samples.

Results

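Carbonic anhydrases interconvert carbon dioxide and water with bicarbonate and a proton. Cells place them in the cytosol, in mitochondria, on the outer face of the plasma membrane or in secretions, where they help to buffer pH, move carbon dioxide and supply bicarbonate to carboxylating enzymes. *Car3* encodes a cytosolic form that is abundant in adipocytes and in slow skeletal muscle fibres, hydrates carbon dioxide slowly compared with *Car2* and can carry glutathione on its cysteines. The family is described here as 9 genes, *Car2*, *Car3*, *Car4*, *Car5b*, *Car6*, *Car8*, *Car9*, *Car12* and *Car13*, of 31053 genes counted. They were chosen by name as members of the family and by their CPM in the 8 libraries described below, *Car3* for its very large difference between the cell states. The values of that contrast are therefore a description, and no p-value is given for any of the 9 genes.

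The cells were fibro/adipogenic progenitors (FAPs), mesenchymal cells of the muscle interstitium, from hind limb skeletal muscles of *mdx* mice of the strain C57BL/10ScSn-Dmdmdx/J at 45 days of age. *mdx* mice lack dystrophin, and all samples shared this background, so there was no wild type sample and no muscle in which *Car3* could be set beside these cells. FAPs were sorted as CD45- CD31- ITGA7- SCA-1+ cells with high or low SCA-1 on their surface, grown in GM, the study's growth medium, for 5 days, and named SCA1-High-FAPs (4 samples) and SCA1-Low-FAPs (4 samples). The states were compared with each other, and the series describes the samples as isolated from 4 mice.

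The 8 libraries held 1880561 to 3985656 counts on genes, so that a count of 0 allowed a level of up to 0.753 to 1.6 CPM. CPM is the count scaled to the library's depth, with TMM factors. These floors are 3 counts per library (counting error only) and were scaled to depth without TMM factors. Of the 9 members, 4 passed the filter on low counts (*Car3*, *Car5b*, *Car6* and *Car13*). *Ly6a*, which encodes SCA-1, was at 492, 789, 645 and 919 CPM in SCA1-High-FAPs and at 1100, 1080, 1156 and 1014 CPM in SCA1-Low-FAPs. Its mRNA was thus higher in the state sorted for low SCA-1 protein 5 days earlier (log2 fold change 0.61, SE 0.17, edgeR quasi-likelihood adjusted p = 0.0341), a call held in 1 of 8 fits that left out a library. The FAP marker *Pdgfra* had counts in every library, at 177 to 291 CPM in SCA1-High-FAPs and 157 to 189 CPM in SCA1-Low-FAPs. *Xist* had counts only in replicates 3 and 4, and the Y-linked *Ddx3y* only in replicates 1 and 2, in both states, so female and male mice were equally shared between the states. SCA1-Low-FAPs replicate 3 had the highest *Car3*, *Adipoq* and *Cfd* levels of its state. Shares were taken of the sum of counts on genes, on no feature, ambiguous and with more than 1 alignment, not of all reads. Those with more than 1 alignment were 37.5% to 39.7% in SCA1-High-FAPs and 40.8% to 43.3% in SCA1-Low-FAPs. Those on no feature were 9.35% to 10.2% and 7.87% to 8.83%. Both measures thus separated the states, and their part in the results was not tested.

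The cytosolic members differed among themselves more than any others. The libraries were made from the 3′ ends of transcripts, so counts do not grow with transcript length and CPM levels were compared between genes without a length correction. *Car3* (ENSMUSG00000027559, GRCm38 chromosome 3, 14863512 to 14872523, plus strand) had 2814, 682, 3229 and 416 counts in SCA1-High-FAPs replicates 1 to 4, which are 1325, 308, 1348 and 153 CPM. In SCA1-Low-FAPs it had 30, 13, 96 and 16 counts, or 14.5, 7.08, 30.4 and 4.22 CPM. The states did not overlap: the lowest SCA1-High-FAPs library was 5.01 times the highest SCA1-Low-FAPs library.

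The mean level of *Car3* in SCA1-High-FAPs, 784 ± 642 CPM (SD, n = 4), was 55.7 times that of SCA1-Low-FAPs, 14.1 ± 11.8 CPM (SD, n = 4). Without SCA1-Low-FAPs replicate 3 the mean of that state was 8.60 ± 5.30 CPM (SD, n = 3) and the ratio 91.1. The log2 fold change, taken throughout with SCA1-High-FAPs as the denominator, a negative value being a higher level in that state, was −5.77 with an SE of 1.09. In bulk RNA, fewer cells with *Car3* transcripts and fewer transcripts per cell cannot be told apart.

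The second feature of *Car3* was its spread within each state. Its coefficient of variation was 81.9% in SCA1-High-FAPs, above that of each of the 301 genes whose mean level there was within 2-fold of its own (median 14.9%). In SCA1-Low-FAPs it was 83.6%, and 99.0% of the 3779 genes of like level there had a lower value (median 32.0%). The highest library was 8.84 times the lowest in SCA1-High-FAPs, and 7.21 times in the other state. Replicates 3, 1, 2 and 4 followed each other in that descending order in both states. Between libraries that bore the same number, *Car3* was 91.4, 43.6, 44.3 and 36.1 times higher in SCA1-High-FAPs, although whether equal numbers mean the same mouse is not given in the sources used here. In each state the male pair of libraries (replicates 1 and 2) and the female pair (replicates 3 and 4) held a high and a low one. By level, *Car3* was the 65th, 499th, 74th and 1191st gene of the 4 SCA1-High-FAPs libraries and between the 5119th and the 9875th in SCA1-Low-FAPs.

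*Car13* (ENSMUSG00000027555, chromosome 3, 14641727 to 14663002, plus strand), another active cytosolic enzyme, had values close to each other in all 8 libraries. It was at 30.6, 26.7, 37.2 and 30.8 CPM in SCA1-High-FAPs and at 37.7, 33.2, 25.1 and 32.7 CPM in SCA1-Low-FAPs. The means were 31.3 ± 4.34 CPM and 32.2 ± 5.25 CPM (SD, n = 4 each), and the log2 fold change of 0.03 (SE 0.24) was within the spread between replicates. Its coefficient of variation was 13.9% and 16.3% in the 2 states, lower than that of most genes of like level, whose medians were 25.2% and 23.8%.

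*Car2* (chromosome 3, 14886273 to 14900770, plus strand), the fast cytosolic enzyme of red cells, kidney and osteoclasts, was nearly absent. It had 2 counts in each of SCA1-High-FAPs replicates 1 and 3 and 0 counts in the other 6 libraries. *Car8* (chromosome 4, 8143362 to 8239041, minus strand) encodes a cytosolic relative without catalytic activity. It had 3, 0, 5 and 9 counts in SCA1-High-FAPs and 12, 11, 3 and 14 counts in SCA1-Low-FAPs. These are 0 to 3.30 CPM and 0.952 to 5.99 CPM, overlapping ranges of a gene below the filter.

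*Car5b* (ENSMUSG00000031373, chromosome X, 163976822 to 164027997, minus strand) encodes a mitochondrial form, which supplies bicarbonate to carboxylases inside the organelle. It had 101, 61, 84 and 46 counts in SCA1-High-FAPs, or 47.5, 27.6, 35.1 and 16.9 CPM, and 20, 32, 36 and 31 counts in SCA1-Low-FAPs, or 9.67, 17.4, 11.4 and 8.18 CPM. The states met at one point, SCA1-High-FAPs replicate 4 lying just under SCA1-Low-FAPs replicate 2, and the other 6 libraries were apart. Its means were 31.8 ± 12.9 CPM and 11.7 ± 4.06 CPM (SD, n = 4 each), a ratio of 2.72 and a log2 fold change of −1.46 (SE 0.35). Like *Car3*, *Car5b* was lowest in replicate 4 of both states.

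*Car6* (chromosome 4, 150187015 to 150201332, minus strand), the secreted form known from saliva and milk, had 10, 19, 0 and 19 counts in SCA1-High-FAPs and 6, 9, 19 and 10 counts in SCA1-Low-FAPs. With one SCA1-High-FAPs library at 0 and the ranges of the states overlapping, the log2 fold change of −0.30 had an SE of 0.75, and it ran from −0.71 to 0.07 as libraries were left out.

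The membrane-bound members had at most 3 counts in a library. Summed over the 4 libraries of each state, *Car12* had 6 counts in SCA1-High-FAPs against 5 in the other state, *Car9* 0 against 4, and the GPI-anchored *Car4* 1 against 0. The few *Car9* counts have a further uncertainty, as the antisense gene *Gm12454*, which overlaps *Car9*, had 9 counts and the strand setting of the counting was not stated. Whether these 3 genes differ between the states was not detectable at this depth.

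**Figure D1:**
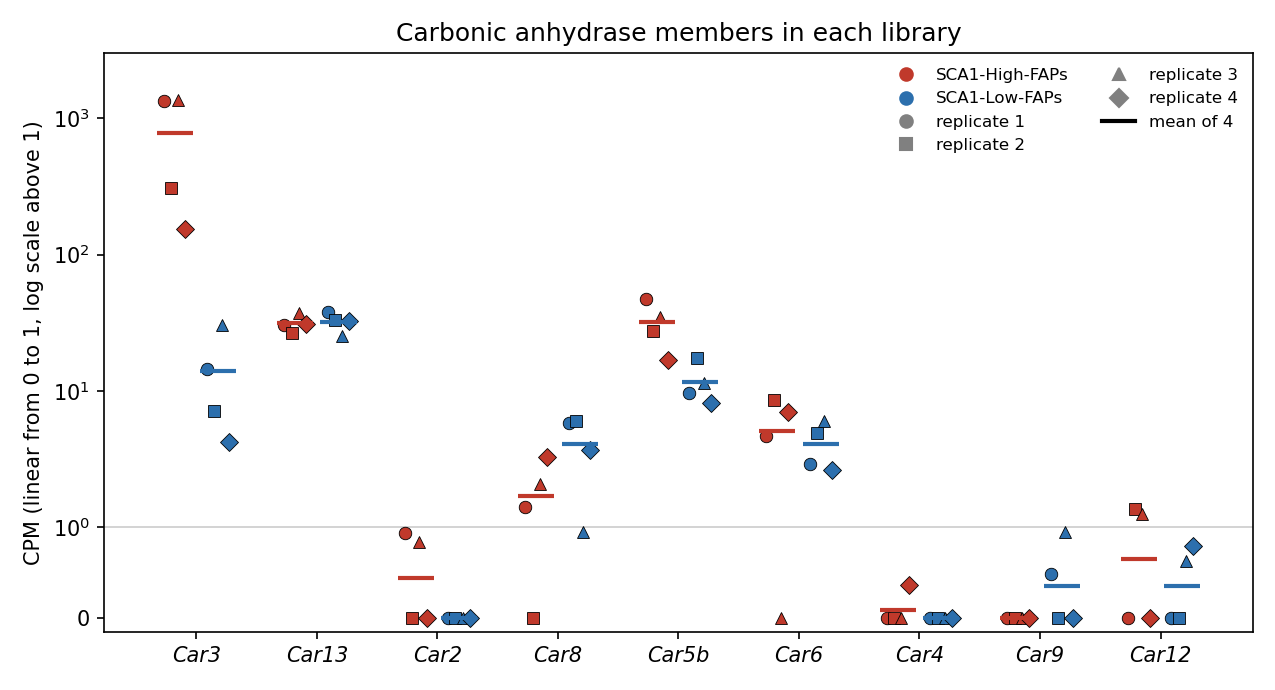
CPM of the 9 members in each of the 8 libraries, on an axis that is linear from 0 to 1 and logarithmic above 1, with red for SCA1-High-FAPs, blue for SCA1-Low-FAPs, a symbol for each replicate number and a bar at the mean of 4. *Car3* spans 153 to 1348 CPM in SCA1-High-FAPs and 4.22 to 30.4 CPM in SCA1-Low-FAPs, *Car13* lies between 25.1 and 37.7 CPM throughout, and *Car2*, *Car4*, *Car9* and *Car12* lie near 0.

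The fit across 10181 genes called 782 of them, or 7.68%, at an adjusted p below 0.05 and a log2 fold change beyond 0.5 in either direction, 4.36% as higher in SCA1-High-FAPs and 3.32% as higher in SCA1-Low-FAPs. *Car3* and *Car5b* were among those higher in SCA1-High-FAPs, but the contrast itself entered the choice of members and nothing is read from that count of 2 in 4. With single libraries left out, the log2 fold change of *Car3* stayed between −6.59 (without SCA1-Low-FAPs replicate 3) and −5.38 and that of *Car5b* between −1.69 and −1.19. The call itself was less firm in these unpaired fits: *Car3* held it in 3 of the 8 and *Car5b* in 5. These counts, too, are a description and no test of the members. With a term for the replicate number (the replicate block), the SE of *Car3* was 0.25, beside 1.09 without it.

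Because the members differ so much in level, the make-up of the family differed mainly through *Car3*. Of all counts on the 9 members, *Car3* took 94.0%, 82.8%, 94.6% and 72.3% in SCA1-High-FAPs (85.9% ± 10.6, SD, n = 4). In SCA1-Low-FAPs it took 20.4%, 10.3%, 40.3% and 8.08% (19.8% ± 14.7, SD, n = 4). Without SCA1-Low-FAPs replicate 3 the latter mean was 12.9%. In SCA1-Low-FAPs *Car13* was the leading member in replicates 1, 2 and 4, with 53.1%, 48.4% and 62.6% of the counts, and *Car3* led in replicate 3, where *Car13* had 33.2%.

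In SCA1-High-FAPs the order of mean levels was *Car3*, then *Car5b* and *Car13*, which did not differ beyond their spread, then *Car6* at 5.07 CPM and *Car8* at 1.70 CPM. In SCA1-Low-FAPs it was *Car13*, then *Car3* and *Car5b*, then *Car6* at 4.12 CPM and *Car8* at 4.11 CPM. There *Car3* overlapped both *Car13* and *Car5b*, and *Car6* and *Car8* overlapped each other. Summed over the family, the level was 211 to 1424 CPM in SCA1-High-FAPs and 52.3 to 75.5 CPM in SCA1-Low-FAPs. Without *Car3* the sums were 71.0 ± 12.1 CPM, from 58.3 to 85.2, and 52.8 ± 7.59 CPM, from 45.0 to 61.5 (SD, n = 4 each), so that the ranges overlapped.

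**Figure D2:**
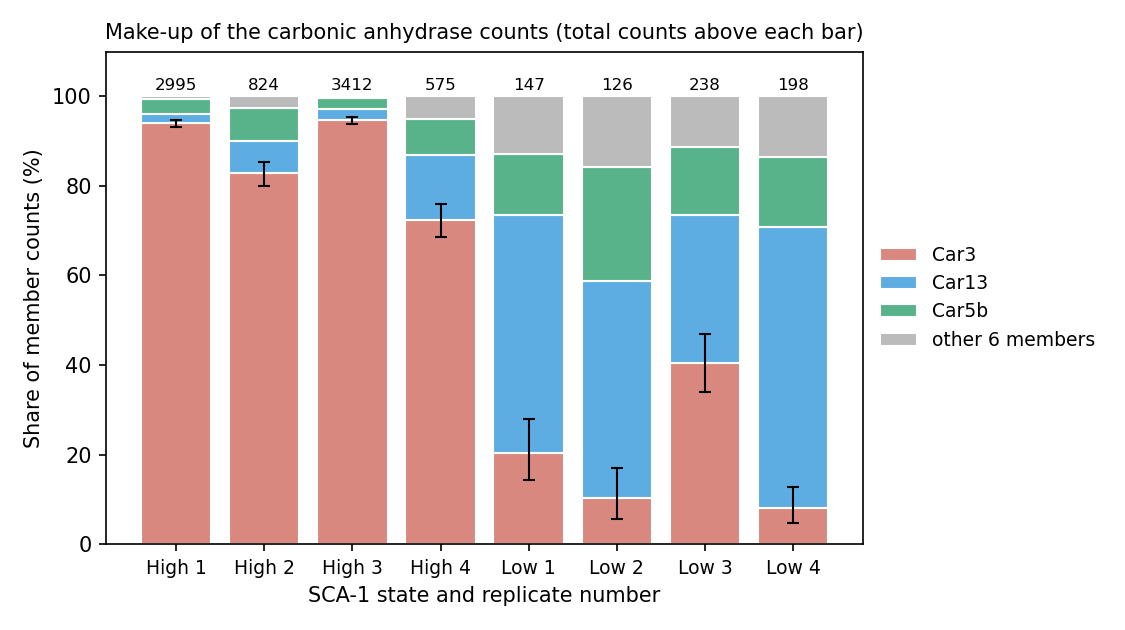
Share of the counts on the 9 members that fell on *Car3*, *Car13*, *Car5b* and the other 6 members in each library, in percent, with the total of member counts above each bar and the exact binomial 95% interval of the *Car3* share as a black line (counting error only). *Car3* fills 72.3% to 94.6% of the SCA1-High-FAPs bars and 8.08% to 40.3% of the SCA1-Low-FAPs bars, where *Car13* takes most of the rest.

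The remaining 7 carbonic anhydrase genes added little. *Car11*, another member without catalytic activity, had 2, 2, 10 and 14 counts in SCA1-High-FAPs and 0, 7, 6 and 3 in SCA1-Low-FAPs, and *Car7* had at most 3 counts in a library. *Car1*, *Car5a*, *Car10*, *Car14* and *Car15* had 0 counts in all 8 libraries, which allows up to 3 counts in each. *Car3* lies in a cluster of family genes on chromosome 3. *Car1*, at 0 counts, is 55144 bp upstream of it, *Car2*, at 4 counts, 13750 bp downstream, and *Car13* 200510 bp upstream. The only other gene of the count tables within 200 kb, *A930001A20Rik*, was also at 0. Genes at so few counts cannot show whether they differ between the states.

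Promoter sequences from RefSeq (GRCm38.p6, the 250 bases before the annotated start, 5′ to 3′ on the gene's strand) were matched by symbol for 5 of the 9 members, *Car4*, *Car5b*, *Car6*, *Car9* and *Car12*. That of *Car5b*, the matched member with the widest difference between the states, at chrX:164028011-164028260 on the minus strand, is shown with 2 GC boxes (GGGCGG, from −113 and −102) and a CCAAT box (from −94) in capitals. That of *Car9*, whose gene is a known target of hypoxia signalling but had 4 counts in all here, at chr4:43506776-43507025 on the plus strand, is shown with the core of the hypoxia response element in capitals. The core (ACGTG) is written there in its form for the opposite strand (CACGT, from −18). The *Car9* window also held a CCAAT box (from −165), left in lower case. In the GENCODE annotation *Car9* starts at 43506966, so the end of this window, with the core, lies inside the gene there.
Car5b: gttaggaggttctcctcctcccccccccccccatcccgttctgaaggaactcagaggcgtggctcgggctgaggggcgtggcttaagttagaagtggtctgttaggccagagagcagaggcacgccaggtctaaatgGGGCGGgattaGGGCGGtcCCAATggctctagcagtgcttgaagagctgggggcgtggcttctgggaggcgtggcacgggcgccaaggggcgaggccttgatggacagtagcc
Car9: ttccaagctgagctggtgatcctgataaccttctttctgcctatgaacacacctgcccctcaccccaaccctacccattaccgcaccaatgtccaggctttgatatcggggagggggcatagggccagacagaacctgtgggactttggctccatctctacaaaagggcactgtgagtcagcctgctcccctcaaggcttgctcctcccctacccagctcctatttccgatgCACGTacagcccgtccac
Of 32851 promoter windows of that length, searched on both strands, 16.6% held the hypoxia core, 32.7% the GC box and 33.8% the CCAAT box. The motifs share no bases with each other in the windows printed. *Car6* also held the hypoxia core, and *Car4*, *Car5b* and *Car12* did not hold it in this window. These matches describe the letters only.

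The genes whose profile over the 8 libraries was most like that of *Car3* included *Adipoq*, *Cfd*, *Adrb3* and *Retn* of the adipocyte list described further on. Likeness was taken as the Euclidean distance between profiles of log2 CPM (prior count 2), each centred on its mean, over the 10181 genes. All profiles share the same 8 libraries, and the difference between the states enters this measure. The nearest were *Adipoq* (adiponectin, a hormone of adipocytes, distance 1.82) and *Cfd* (adipsin, 1.86), against a median distance of 8.59 over all genes. Next came *Adrb3*, the β3-adrenergic receptor, at 2.56, *Agt*, angiotensinogen, at 2.69, *Ntrk2*, a neurotrophin receptor, at 2.74, *Apoe* at 2.87, the complement gene *C3* at 2.92 and *Retn*, resistin, at 2.98. *Gdpd2* followed at 3.16.

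When the mean of each state was removed from every profile, so that the difference between the states no longer entered, the nearest gene was again *Adipoq* (distance 0.933, median of all genes 3.50). It was followed by *Apoe* (1.16), *Syt13* (1.34), *Retn* (1.38), *Myoc* (1.51), *Chchd10* (1.63), *Cfb* (complement factor B, 1.66), *Adrb3* (1.70), *Pnpla2* (the adipose triglyceride lipase, 1.73) and *Cdo1* (cysteine dioxygenase, 1.75). The lists shared *Adipoq*, *Adrb3*, *Apoe* and *Retn*, 4 of 10 genes of each. The replicate order of *Adipoq* shows what the measure picked up: it was at 608, 169, 421 and 60.1 CPM in SCA1-High-FAPs and at 9.18, 9.26, 24.4 and 4.22 CPM in SCA1-Low-FAPs. In both states, then, *Adipoq* was lowest in replicate 4, and in SCA1-Low-FAPs highest in replicate 3, as *Car3* was. Of these 10 genes, found without the difference between the states, 8 were called as higher in SCA1-High-FAPs by edgeR, beside 4.36% of all genes, with a median log2 fold change of −3.22. The exceptions were *Syt13* (−2.05, adjusted p = 0.07) and *Myoc* (−1.05, adjusted p = 0.294). The 10 genes were picked in these same 8 libraries by likeness to *Car3*, so the count is a description and no independent support. With single libraries left out, *Retn* and *Adrb3* held their call in all 8 fits, *Cfb* in 6 and *Cdo1* in 4. *Apoe*, *Chchd10* and *Pnpla2* held it in 3 and *Adipoq* in 2.

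**Figure D3:**
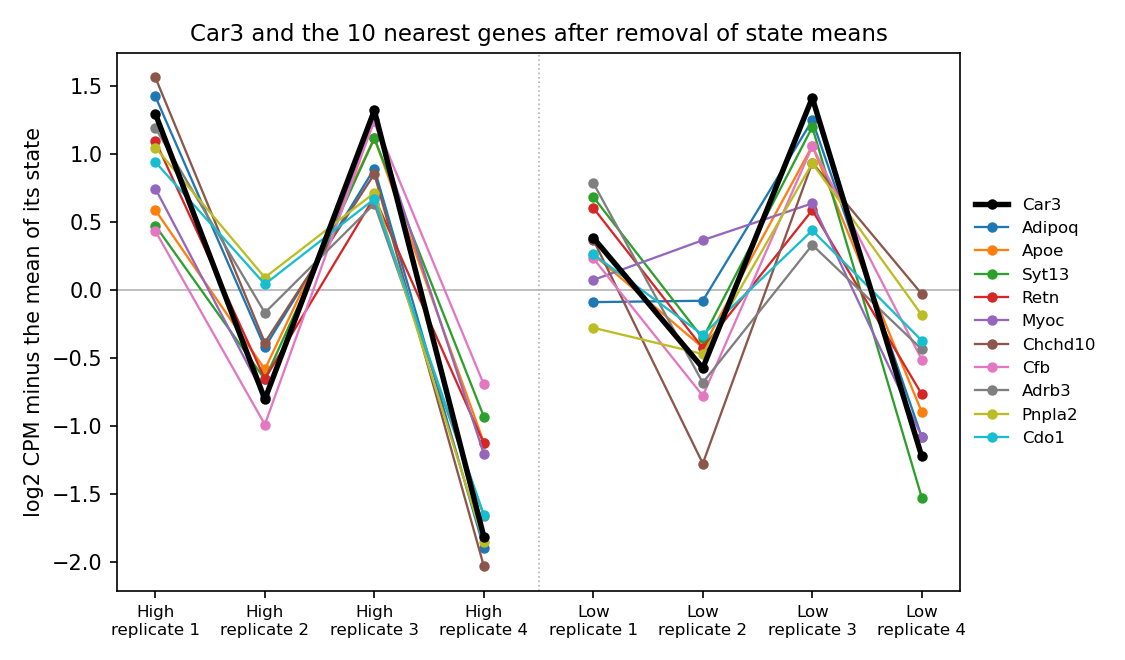
log2 CPM minus the mean of its state for *Car3* (black) and the 10 genes nearest to it once state means were removed (coloured), with the 4 SCA1-High-FAPs libraries on the left and the 4 SCA1-Low-FAPs libraries on the right, lines joining the libraries of a state. In SCA1-High-FAPs the lines are high in replicates 1 and 3 and low in replicate 4, and in SCA1-Low-FAPs most are highest in replicate 3.

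The other tested members had different neighbours. Over all 8 libraries the 3 genes nearest to *Car5b* were *Pde3b* (distance 0.668), which encodes a phosphodiesterase of insulin signalling in fat, *Ogn* (0.674), which encodes an extracellular matrix protein, and *Abhd5* (0.705), the co-activator of the adipose triglyceride lipase. With state means removed they were *Slc1a5*, *Lrrc28* and *Bcat2*. Nearest to *Car13* were *Trmt2a*, *Cd151* and *Psma6*, at distances of 0.149 to 0.235. Nearest to *Car6* were *Pagr1a*, *Dnajb3* and *Eaf1*, at 0.699 to 0.919.

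Adipocyte genes as a list were also read in full. Of 32 genes, 23 could be tested, and 14 were called as higher in SCA1-High-FAPs and 0 as higher in SCA1-Low-FAPs (60.9%, beside 7.68% of all genes, with a median log2 fold change of −2.45 beside 0.00 over all genes). *Adrb3* was at 87.1, 33.5, 58.9 and 11.4 CPM in SCA1-High-FAPs and at 2.90, 0.544, 1.90 and 0.792 CPM in SCA1-Low-FAPs (−4.94, SE 0.67, adjusted p = 0.00132). The log2 fold change was −4.49 for *Retn* (SE 0.65, adjusted p = 0.000797), −3.43 for *Aqp7*, the glycerol channel (adjusted p = 0.0022), and −2.81 for *Cd36*, the fatty acid carrier (adjusted p = 0.00254). *Cebpa*, a transcription factor of adipocyte differentiation, had a log2 fold change of −1.05 (SE 0.19, adjusted p = 0.00279). These 5 genes were called in all 8 fits that left out a library.

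Other genes of the list were less firm in the unpaired fits. *Cfd* had the largest difference of the list, −5.46, and was not called by edgeR (SE 1.25, adjusted p = 0.0534). *Adipoq* had a log2 fold change of −4.72 (SE 0.95, adjusted p = 0.0352) and was called in 2 of those 8 fits. *Pnpla2* had −3.52 (SE 0.70, adjusted p = 0.0286) and was called in 3. With the replicate block edgeR called 17 genes of the list. Among them were *Adipoq* (SE 0.33, adjusted p = 4.5e-05), *Pnpla2* (SE 0.46, adjusted p = 0.00487) and *Cfd* (adjusted p = 0.0018). *Pparg*, the master regulator of the lineage, was not called by edgeR (−1.45, SE 0.51, adjusted p = 0.115), and in 0 of the 8 fits that left out a library. With the replicate block it was not called either (edgeR adjusted p = 0.168). DESeq2, which called 6.71% of all genes with a count, called 21 of the 32 genes, all as higher in SCA1-High-FAPs. Among them were *Cfd* (DESeq2 adjusted p = 8.1e-05) and *Pparg* (DESeq2 adjusted p = 0.0206). The list held 9 called genes without SCA1-High-FAPs replicate 3, SCA1-Low-FAPs replicate 1 or SCA1-Low-FAPs replicate 4, and 16 without SCA1-Low-FAPs replicate 3. Summed, the 32 genes were at 14343, 7025, 9769 and 4326 CPM in SCA1-High-FAPs and 1877, 2310, 2709 and 1644 CPM in SCA1-Low-FAPs. In both states *Car3* and the sum were lowest in replicate 4, but *Car3* fell further than the sum. Between replicates 3 and 4 of SCA1-High-FAPs it went from 1348 to 153 CPM while the sum went from 9769 to 4326 CPM. Such a fall was not particular to *Car3*. Between the same libraries *Cfd* went from 980 to 103 CPM and *Adipoq* from 421 to 60.1 CPM. Other genes of the list did not fall, such as *Pparg*, at 23.4 and 26.8 CPM.

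**Figure D4:**
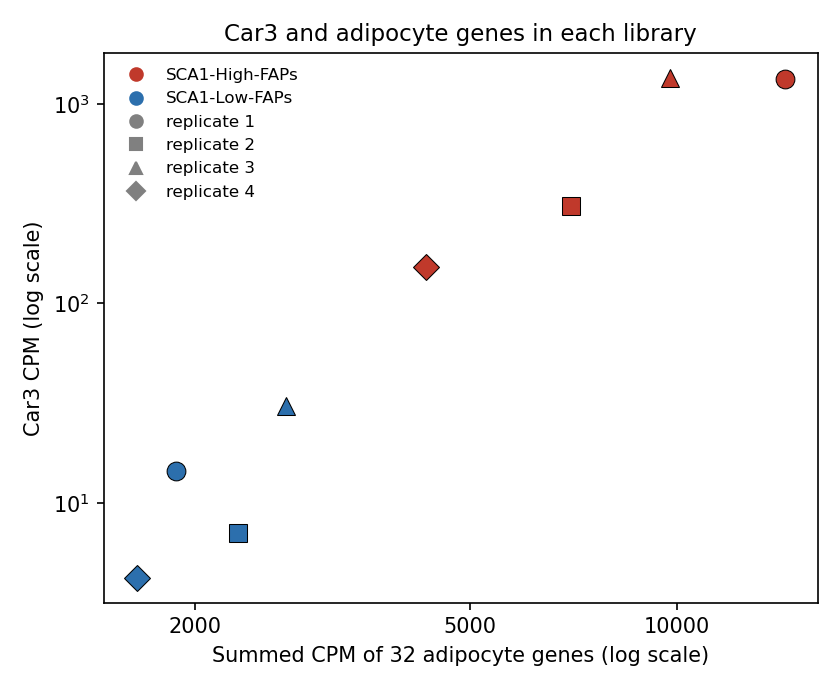
*Car3* CPM (vertical, log scale) against the summed CPM of the 32 adipocyte genes (horizontal, log scale), 1 point per library, red for SCA1-High-FAPs and blue for SCA1-Low-FAPs, with a symbol for each replicate number. The 4 SCA1-High-FAPs points, at 4326 CPM and above on the horizontal axis, lie above and to the right of the SCA1-Low-FAPs points, at 2709 CPM and below, and replicate 4 is the lowest point of each colour.

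Of 8 tested genes of the list of carboxylases that use bicarbonate, 1 was called (12.5%, beside 7.68%), and the median log2 fold change was −0.94. The called gene was not a carboxylase but *Btd*, which encodes biotinidase, the enzyme that recycles the carboxylases' cofactor, at 52.7, 19.4, 53.0 and 40.7 CPM in SCA1-High-FAPs and 14.98, 27.8, 15.9 and 14.8 CPM in SCA1-Low-FAPs (−1.19, SE 0.33, adjusted p = 0.0312). The call held in 2 of 8 fits that left out a library, and its adjusted p ran from 0.00781 to 0.102. *Pcx*, the mitochondrial pyruvate carboxylase, was at 44.3, 20.3, 40.5 and 12.1 CPM in SCA1-High-FAPs and 17.4, 12.0, 13.0 and 8.45 CPM in SCA1-Low-FAPs (−1.21, SE 0.39, adjusted p = 0.0648). *Acaca*, the cytosolic acetyl-CoA carboxylase of fatty acid synthesis, had −1.02 (SE 0.30, adjusted p = 0.0509). Summed, the 10 genes of the list, *Btd* included, were at 191 to 300.4 CPM in SCA1-High-FAPs and at 124 to 152 CPM in SCA1-Low-FAPs. By DESeq2, which called 6.71% of all genes with a count, 3 genes of the list were called, *Btd*, *Acaca* and *Pcx*. The list held 0 called genes without SCA1-High-FAPs replicate 1 or 3 or without SCA1-Low-FAPs replicate 1 or 3, and 2 without SCA1-High-FAPs replicate 4.

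Bicarbonate transporters, the usual membrane partners of carbonic anhydrases, did not pass the test. Of 7 tested genes edgeR and DESeq2 called 0, 0 had an unadjusted p below 0.05, and the median log2 fold change was −0.21. *Slc4a2*, an anion exchanger, had 0.17 (SE 0.23), and the sodium bicarbonate cotransporters *Slc4a4* and *Slc4a7* had −0.25 each (SE 0.27 and 0.26). Of the carbon dioxide channels and the bicarbonate sensor, only the water channel *Aqp1* could be tested (0.59, SE 0.45, adjusted p = 0.502), and 4 of the 7 genes were at 0 in all libraries.

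Among proton and lactate transporters, 1 of 10 tested genes was called (10.0%, beside 7.68%), and it was higher in SCA1-Low-FAPs. *Slc16a3*, which exports lactate with a proton, was at 3.30, 9.04, 16.3 and 15.04 CPM in SCA1-High-FAPs and at 39.1, 21.2, 18.7 and 54.1 CPM in SCA1-Low-FAPs. The states did not overlap (log2 fold change 1.60, SE 0.44, adjusted p = 0.0347). The call was lost without SCA1-High-FAPs replicate 1 or 2 or SCA1-Low-FAPs replicate 1 or 4, at adjusted p values of up to 0.152. The list held 2 called genes without SCA1-Low-FAPs replicate 2 or 3. The other lactate carrier *Slc16a1* (−0.23, SE 0.26) and the carriers' chaperone *Bsg* (−0.17, SE 0.14) were not called.

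Genes of the hypoxia response, the pathway to which *Car9* and *Car12* belong, changed in both directions. Of 21 tested genes, 4 were called as higher in SCA1-High-FAPs and 2 as higher in SCA1-Low-FAPs (28.6%, beside 7.68%, median 0.12). *Epas1*, which encodes the oxygen-labile factor HIF-2α, was at 99.3, 72.8, 129 and 61.6 CPM in SCA1-High-FAPs and at 7.73, 21.8, 28.9 and 14.0 CPM in SCA1-Low-FAPs (−2.31, SE 0.34, adjusted p = 0.00131). *Pfkfb3*, a regulator of glycolysis, had −1.61 (adjusted p = 0.00501), *Ndrg1* −1.12 (adjusted p = 0.0147) and *Bnip3*, a mitophagy receptor, −0.86 (adjusted p = 0.0284). In the other direction, *Ldha*, lactate dehydrogenase A, was at 301 to 363 CPM in SCA1-High-FAPs and 479 to 666 CPM in SCA1-Low-FAPs (0.88, SE 0.15, adjusted p = 0.00145), and *Mif*, a cytokine, had 0.83 (adjusted p = 0.00407). *Vegfa* (0.00, SE 0.18, adjusted p = 0.997) and the glucose transporter *Slc2a1* (0.12, SE 0.26, adjusted p = 0.854) were not called. Without single libraries 5 or 6 genes of this list were called, and *Bnip3* was called in 4 of 8 such fits.

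All 20 glutathione and redox genes could be tested. *Gpx3*, the secreted glutathione peroxidase, was called as higher in SCA1-High-FAPs, at 1579, 1928, 3961 and 2121 CPM beside 369, 509, 1154 and 524 CPM (−1.91, SE 0.44, adjusted p = 0.0402). *Gclc* (0.96, adjusted p = 0.0243) and *Gclm* (0.56, adjusted p = 0.0423), the subunits of the enzyme that starts glutathione synthesis, were called as higher in SCA1-Low-FAPs, as were *Txnrd1* (0.84, adjusted p = 0.0352) and *Prdx6* (0.53, adjusted p = 0.0449). That made 5 of 20 called (25.0%, beside 7.68%, median 0.22). The count rested on single libraries. It was 0 without SCA1-High-FAPs replicate 2 or 4 or SCA1-Low-FAPs replicate 1 or 4, 1 without SCA1-High-FAPs replicate 1 or SCA1-Low-FAPs replicate 2, 2 without SCA1-High-FAPs replicate 3, and 7 without SCA1-Low-FAPs replicate 3.

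**Figure D5:**
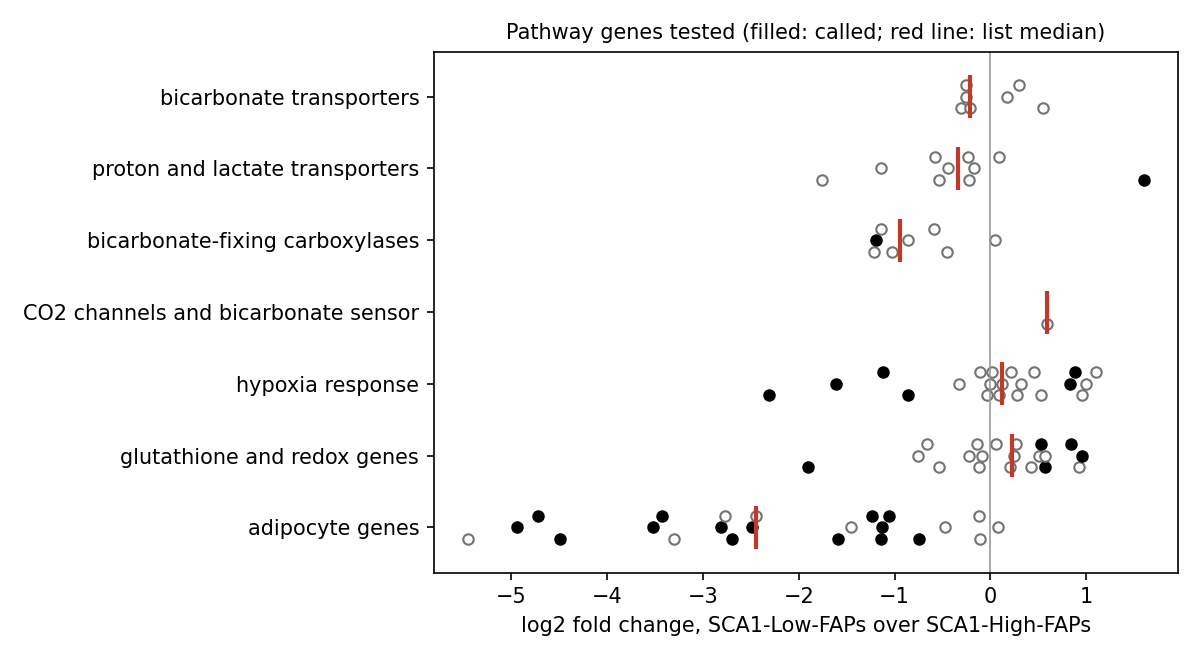
log2 fold change (SCA1-High-FAPs as the denominator) for every tested gene of 7 lists, 1 circle per gene, filled where edgeR called it, with a red line at the list's median and negative values for genes higher in SCA1-High-FAPs. Adipocyte genes reach −5.46 with a median of −2.45, the carboxylase list has a median of −0.94, and the hypoxia response and redox lists have called genes on both sides.

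Markers of other cells in which carbonic anhydrases are abundant left few counts. The slow fibre genes *Myh7* and *Tnni1* had 0 counts in all libraries, as had *Ckm*, *Pax7*, *Myod1* and *Myog*. In all, 8 of the 23 skeletal muscle fibre and myogenic markers were at 0, and the list summed to 8.07 to 15.5 CPM in SCA1-High-FAPs and to 12.4 to 35.9 CPM in SCA1-Low-FAPs. Its single tested gene, *Acta1*, was not called by edgeR (2.03, SE 0.62, adjusted p = 0.0547; unadjusted p below 0.05 and called by DESeq2).

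Erythroid markers, 8 genes with 2 at 0, summed to 24.9 to 30.7 CPM in SCA1-High-FAPs and 25.1 to 56.0 CPM in SCA1-Low-FAPs, nearly all from *Slc25a37*, and the globin genes *Hba-a1* and *Hbb-bs* had 7 and 15 counts in all. Endothelial markers, 10 genes with 3 at 0, summed to 6.97 to 16.7 CPM and 5.32 to 13.5 CPM. Leucocyte markers summed to 25.3 to 48.0 CPM in SCA1-High-FAPs and to 12.5 to 19.4 CPM in SCA1-Low-FAPs, most of it from *Lyz2* (19.9 to 37.2 CPM and 6.28 to 15.2 CPM). *Csf1r*, in contrast, had 32 and 58 counts in the 2 states. Of the 11 genes, 6 were at 0, among them *Adgre1*, *Itgam* and *Tyrobp*, and the pan-leucocyte *Ptprc* had 1 count in 8 libraries. *Lyz2*, the only one tested, had a log2 fold change of −1.42 (SE 0.34, adjusted p = 0.0153), and the part of such cells in the result was not tested.

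Pericyte and smooth muscle markers, 8 genes, summed to 26.2 to 51.8 CPM and 29.2 to 69.7 CPM. Of these *Cspg4* (2.40, adjusted p = 0.0415) and *Myh11* (1.85, adjusted p = 0.0232) were called as higher in SCA1-Low-FAPs and *Notch3* (−1.54, adjusted p = 0.0487) as higher in SCA1-High-FAPs. With single libraries left out, *Cspg4* was called in 2 of 8 fits, *Myh11* in 5 and *Notch3* in 1. Glial markers were at 11.4 to 20.0 CPM and 7.62 to 11.1 CPM. Tendon markers were at 396 to 676 CPM and 543 to 948 CPM, and 0 of their 3 tested genes were called by edgeR, while 2 had an unadjusted p below 0.05 and 2 were called by DESeq2. FAP markers were at 13245 to 16177 CPM and 8515 to 14236 CPM. Of those 9 genes, *Dcn* (−2.08, adjusted p = 0.0167) and *Col3a1* (−1.03, adjusted p = 0.0294) were called as higher in SCA1-High-FAPs, and *Thy1* (0.67, adjusted p = 0.0105) and *Ly6a* as higher in SCA1-Low-FAPs. *Dcn* held its call in 6 of 8 fits with a library left out, *Col3a1* in 2 and *Thy1* in 7.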

How the data were processed

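RNA of 4 SCA1-High-FAPs and 4 SCA1-Low-FAPs samples was counted per gene. The authors made 3′ mRNA libraries (QuantSeq FWD) from total RNA, trimmed the reads with bbduk, aligned them with STAR to mm10 and assigned them to Ensembl release 93 genes with htseq-count. The deposited values are these raw counts per gene. Reads with more than 1 alignment were given to no gene. The strand setting is not given in the sources used here, and no molecular identifiers are mentioned, so intervals and floors cover counting error only. Names and positions came from GENCODE M21 (GRCm38), by identifier, for 31011 of 31053 genes.

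Counts were compared with edgeR 4.0.16 in R 4.3.3: TMM factors, filterByExpr (minimum count 10, minimum total 15; 10181 of the 15873 genes with a count), glmQLFit with robust settings and glmQLFTest over all 8 samples, with Benjamini-Hochberg adjustment over all genes tested. A gene was called at an adjusted p below 0.05 and a log2 fold change beyond 0.5. CPM used the TMM factors, except in the floors for a count of 0. Gene names, lists and figures were handled with Python 3.11.15. The main edgeR fit and the DESeq2 fit were tested on simulated data, and the other alternatives were not. The samples are biological replicates by the series' description, so p-values measure the spread between these 4 and 4 samples, taken as unpaired.

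The members and all gene lists (other carbonic anhydrases, bicarbonate, proton and lactate transporters, carboxylases, carbon dioxide channels, hypoxia, adipocyte and redox genes, cell markers) were chosen with earlier results of these data known. Named were the members, the other family genes, in each list up to 6 called genes with the largest change plus 17 genes whatever their values, the 10 genes nearest to *Car3* by each distance and the 3 nearest to each other tested member, and genes within 200 kb of *Car3*. *Acta1*, *Aqp1*, *Ckm*, *Myh7*, *Tnni1*, *Pax7*, *Myod1*, *Myog*, *Slc25a37*, the globins, *Adgre1*, *Itgam*, *Tyrobp*, *Ptprc*, *Csf1r*, *Slc9a9*, *Xist* and *Ddx3y* were added after their values were seen. Alternatives were DESeq2 1.42.0, RLE factors, 2 other filters, a replicate block, a stricter threshold, each library left out and, added after the data were seen, a term for sex read from *Xist*. Protein sequences were not analysed here, and 2 genes that the naming rule picks are not reported here.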

Additional observations from a re-analysis of the deposited data

Results flagged for a closer look

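In 116 groups of 4 samples (58 genes or sums, each in both states), 10 held 1 sample far from the other 3 by Dixon's ratio, and chance alone would give about 1 in 20. None of the 10 was a carbonic anhydrase. In 5 of the 10 the sample was SCA1-Low-FAPs replicate 3, the SCA1-Low-FAPs library with the most *Car3*. There *Cfd* was at 42.8 CPM (others 1.63 to 7.73), *Pnpla2* at 30.1 CPM (others 10.9 to 13.5), *Pparg* at 27.3 CPM (others 12.6 to 14.2) and *Gdpd2* at 3.17 CPM (others 0 to 0.528), all above the other SCA1-Low-FAPs libraries. *Ldha* was below them, at 479 CPM (others 639 to 666). The other 5 were single genes in other libraries. *Pparg* in SCA1-High-FAPs replicate 1 was at 109 CPM (others 23.4 to 29.8). *Btd* in SCA1-Low-FAPs replicate 2 was at 27.8 CPM (others 14.8 to 15.9). In SCA1-High-FAPs replicate 3, *Slc2a1* was at 17.9 CPM (others 31.7 to 33.0) and *Gclm* at 284 CPM (others 207 to 214). *Notch3* in SCA1-High-FAPs replicate 4 was at 9.90 CPM (others 12.5 to 12.7).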

How the results depend on the processing

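Of 210 values recomputed under the alternatives, 170 stayed within their limits, 40 moved and 0 turned a called log2 fold change to the other direction. Genes called fell from 782 to 307 at an adjusted p below 0.01. Called genes of the carboxylase list, which includes *Btd*, were 3 with DESeq2 and 3 without the filter. They were 3 where every sample had to hold at least 10 counts and 0 with the replicate block. Called proton and lactate transporters were 0 under that stricter filter, where fewer genes were tested. With 1 library left out, 410 to 1017 genes were called (410 and 417 without SCA1-Low-FAPs replicates 4 and 1, 1017 without SCA1-Low-FAPs replicate 3). The log2 fold change ran from −6.59 to −5.38 for *Car3* and from −1.69 to −1.19 for *Car5b*. It ran from −0.71 to 0.07 for *Car6* and from −0.04 to 0.13 for *Car13*. Called were 0 to 2 genes of the proton and lactate list and 0 to 2 of the carboxylase list. Called in the other lists were 5 to 6 hypoxia genes, 9 to 17 adipocyte genes and 0 to 7 redox genes. The *Car3* share of member counts ranged from 83.0% to 90.5% in SCA1-High-FAPs and from 12.9% to 23.7% in SCA1-Low-FAPs, and of the 10 genes most like *Car3*, 8 to 10 stayed over all profiles and 5 to 9 with state means removed. A term for sex gave 850 genes called and 13 adipocyte genes, and *Adipoq* (adjusted p = 0.0567), *Pnpla2* (0.0512) and *Notch3* (0.0548) were then not called. The replicate numbers are shared between the states, and so is the sex of each number, and the series describes 4 mice. The labels do not say that a number marks a mouse. The deviations of same-numbered samples from their state means had correlations near 0 over all tested genes (−0.0165, 0.00673, −0.0137 and −0.0502). Such correlations cannot decide whether equal numbers mean the same mouse. The main fit did not pair the samples, and the replicate block gives the values with pairing. With the replicate block 697 genes were called, 17 of them in the adipocyte list, beside 14 of that list in the main fit. The log2 fold change was then −5.68 (SE 0.25) for *Car3* and −1.40 for *Car5b*. Without the block the SE of *Car3* was 1.09. With it the SE of *Car5b* went from 0.35 to 0.34, that of *Car6* from 0.75 to 0.95 and that of *Car13* from 0.24 to 0.27. Of the named genes *Btd* (adjusted p = 0.0952), *Slc16a3* (0.0521), *Bnip3* (0.0791), *Ly6a* (0.0573), *Gclm* (0.0973), *Txnrd1* (0.0852), *Prdx6* (0.107) and *Notch3* (0.0955) were then not called by edgeR, while *Cfd* (0.0018), *C3* (4.5e-05) and *Syt13* (0.018) were. The only called proton and lactate gene was then *Slc9a9*, higher in SCA1-High-FAPs, in place of *Slc16a3*, and the redox calls were 2 in each direction. *Car2*, *Car4*, *Car8*, *Car9* and *Car12* were too shallow for a fold change.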
